A study of Arabidopsis thaliana with 12 samples.

Results

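The BLJ line and the JKD line were compared directly. Each line carries a UAS construct for 1 BIRD transcription factor in the same ground tissue driver line, and the comparison asks which transcripts differ between the lines labelled for the one and the other factor. The groups were chosen by the titles of the arrays. They hold 6 of the 12 arrays of the series, 3 per line, and all 22746 probe sets other than the array's own controls. All arrays are single-colour Affymetrix ATH1 arrays hybridised with RNA of Arabidopsis thaliana root tip cells, collected from seedlings of 5 days and sorted for green fluorescence. Every plant was of ecotype C24 and carried J0571, an enhancer trap insertion in which the transcriptional activator GAL4 and a fluorescent protein are expressed in the ground tissue, the cortex and endodermis. The control line carried J0571 alone. By their labels, the BLJ and JKD lines also carried a UAS copy of BLJ or of JKD for GAL4 to drive, in a wild-type background. The arrays did not show this: the BLJ probe set was lower in the line labelled for BLJ than in the controls, and the JKD probe set was not higher in the line labelled for JKD, as detailed with the network genes. The lines are therefore named by their labels throughout. Another line, labelled for a UAS copy of SCR in the same driver line, gave 3 arrays that enter no comparison here. They share in the normalization and the estimate of spread, and their heat shock means are plotted. The 3 arrays of a group are labelled as biological replicates; how many independent transformants stand behind a line is not stated in the labels. J0571 sets where GAL4 acts, so such lines do not mimic the native domains of the factors. In sorted cells, fewer cells of a type and less RNA per cell cannot be told apart.

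BIRD proteins are zinc finger transcription factors of the plant INDETERMINATE DOMAIN family. In the root, JACKDAW (JKD) and BLUEJAY (BLJ) act together with the GRAS proteins SHORT-ROOT (SHR) and SCARECROW (SCR). SHR moves from the stele into the neighbouring layer, and its partners restrict its movement and set the formative divisions and identity of cortex and endodermis. The endodermis then builds a Casparian strip of lignin and later a suberin coat, for which peroxidases, dirigent proteins and lipid-handling enzymes are needed.

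Some arrays stood apart before any comparison of genes. Of 23 listed heat shock genes, 7 were measured and 5 tested. The mean log2 value of these 5 was 1.13, 0.90 and 1.32 on BLJ 1, BLJ 2 and BLJ 3. On the JKD arrays it was 0.65, 0.60 and 0.88, in replicate order. On the controls it was 0.65, 0.75 and 1.20, so control 3 resembled BLJ 1 and BLJ 3 rather than the other controls. The BLJ and JKD arrays did not overlap in this value. None of the 5 heat shock genes was called, beside 1.71% of all probe sets tested. AT1G54050, a small heat shock protein gene, had the largest difference among them (log2 fold change 0.98, adjusted p = 0.126). These genes were dim, with group means from 0.786 (AT5G48570, JKD line) to 2.72 (AT1G54050, BLJ line) in the controls and both lines. HSA32 was lower in the BLJ line than in the controls (0.942 against 1.03). Array medians of the deposited intensities lay between 0.785 and 0.825 in these lines. Correlations of log2 values across probe sets were 0.968 to 0.983 between BLJ and JKD arrays and 0.979 to 0.990 among BLJ arrays. No columns of the table were identical.

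**Figure D1:**
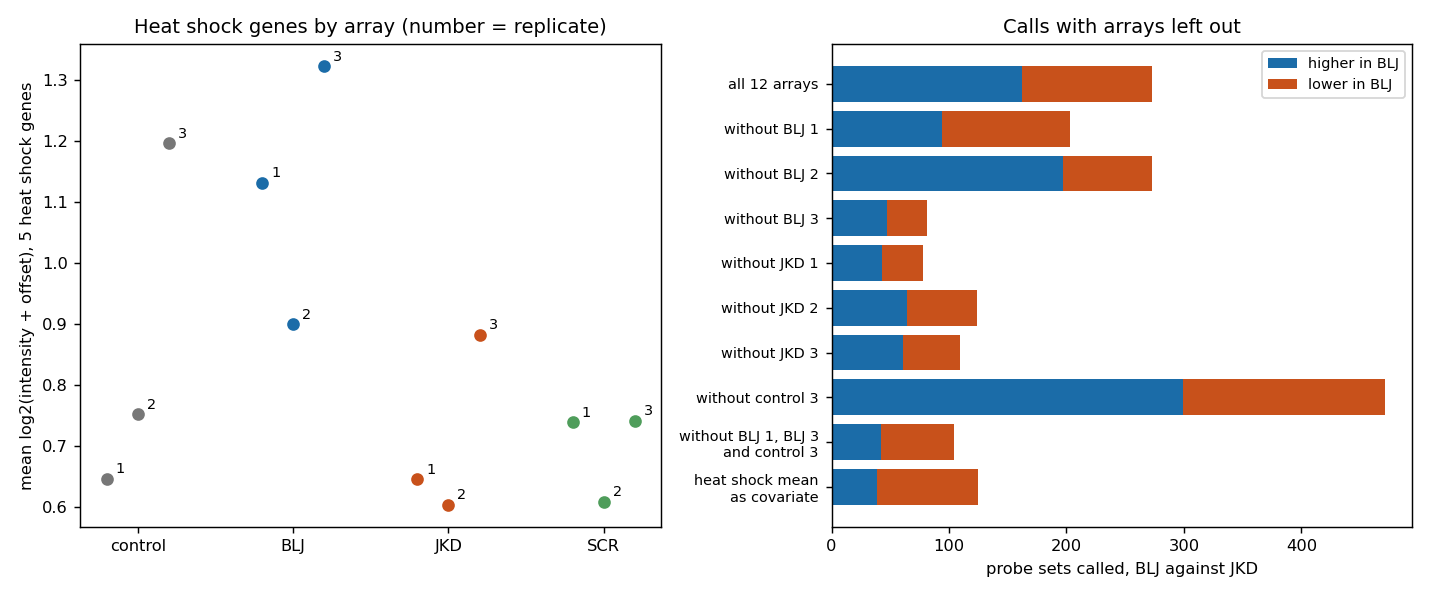
Left, mean log2(intensity + 0.703) of 5 heat shock genes on each of the 12 arrays, with the replicate number beside each point. Right, number of probe sets called between the BLJ and JKD lines with all arrays, with arrays left out and with the heat shock mean as a covariate; blue is higher and orange lower in the BLJ line. BLJ 1, BLJ 3 and control 3 have heat shock means above 1.1, and the higher calls drop from 162 to 39 with the covariate.

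Of 15923 probe sets tested, 273 (1.71%) differed between the lines in limma's test at an adjusted p under 0.05. In the BLJ line 162 (1.02%) were higher and 111 (0.697%) were lower than in the JKD line, and 1926 had an unadjusted p under 0.05. Against the controls, 678 (4.26%) differed in the BLJ line, 1.82% upwards and 2.44% downwards. In the JKD line 437 (2.74%) differed, 0.867% upwards and 1.88% downwards. The median size of the 273 differences was 0.35 on the log2 scale, 81 were over 0.5 and 11 over 1. For all 273 the BLJ and JKD arrays did not overlap, as was the case for 19.2% of all probe sets tested. All fold changes are on the log2(intensity + 0.703) scale, which understates those of dim probe sets. A gene could be named for 126 of the 273, of which 72 were higher and 54 lower. The count depended on single arrays: it was 81 without BLJ 3, 78 without JKD 1, 124 without JKD 2, 109 without JKD 3 and 471 without control 3. Without BLJ 1, BLJ 3 and control 3 it was 104, of which 42 were higher and 62 lower; BLJ 2 was then the only BLJ array, so its spread was taken from the rest of the arrays. With the heat shock mean of each array as a covariate it was 125, of which 39 were higher and 86 lower. This covariate did not overlap between the BLJ and JKD arrays, so it takes up part of the difference between the lines. A call lost with it cannot be assigned to heat shock or to the line.

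**Figure D2:**
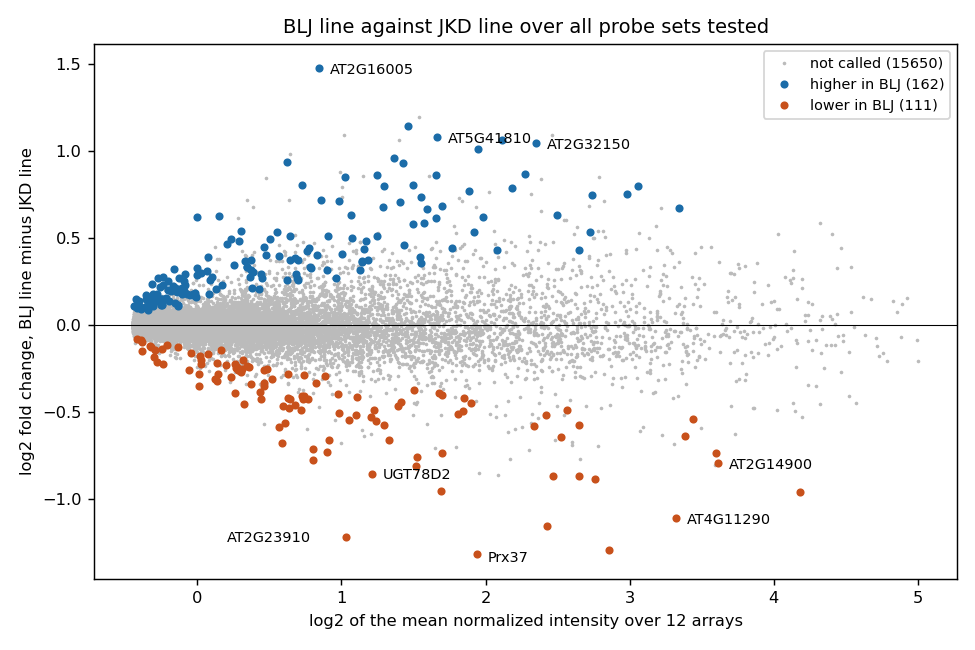
Log2 fold change of the BLJ line minus the JKD line (y axis) against the log2 of the mean intensity over 12 arrays (x axis) for the 15923 probe sets tested; coloured points passed the test. The 162 higher and 111 lower calls lie on both sides of zero, with AT2G16005 at the top and Prx37 at the bottom.

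The 2 smallest adjusted p-values belonged to genes that were lower in the BLJ line, Prx37 and AT2G23910. Prx37 (AT4G08770) encodes a class III peroxidase, one of the enzymes that cross-link or loosen the cell wall with hydrogen peroxide. The BLJ arrays had intensities of 2.13, 1.72 and 1.88, against 5.64, 5.58 and 6.19 for JKD and 4.29, 4.0 and 4.71 for the controls. Every BLJ array was below every control and every JKD array was above every control. The JKD mean was 3.04 times the BLJ mean, a log2 fold change of −1.32 ± 0.10 (SE) with an adjusted p of 9.64e-05. Against the controls the BLJ line had −0.95 (adjusted p = 0.000921) and the JKD line 0.37 (adjusted p = 0.0748, not passed).

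AT4G11290, another class III peroxidase, was brighter and followed the same order. It measured 7.05, 3.97 and 4.76 in the BLJ line against 11.9 on each of the JKD arrays, with 10.6, 9.63 and 10.8 on the controls. The groups did not overlap, and the log2 fold change was −1.11 ± 0.15 (adjusted p = 0.00296). Of 37 class III peroxidases tested, 4 were lower in the BLJ line and 0 were higher, against 1.71% of all probe sets called. The other called members were AT4G36430 (1.53 against 2.46, −0.50) and AT4G16270 (0.863 against 1.44, −0.45). The family list was put together by locus after results were known. Its median log2 fold change was −0.03, beside −0.002 over all probe sets tested. A shorter list found by gene symbol held 3 tested members, of which 1, Prx37, was called. Some members lay the other way without passing the test, with 0.76 for AT5G17820 (adjusted p = 0.095) and 0.53 for AT4G30170 (adjusted p = 0.0739). The number of called members was 3 to 5 when any 1 BLJ or JKD array was left out and 3 with the heat shock covariate.

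AT2G23910, which encodes a protein of the NAD(P)-binding Rossmann-fold superfamily, lay on opposite sides of the control level in these lines. The BLJ arrays gave 1.30, 1.06 and 1.21 and the JKD arrays 4.11, 3.04 and 4.01, with controls of 2.33, 2.04 and 1.73. No BLJ or JKD array overlapped the controls. The log2 fold change between the lines was −1.22 ± 0.10 (adjusted p = 9.64e-05). The BLJ line was below the controls by 0.53 and the JKD line above them by 0.69 on this scale, and both of these differences passed the test (adjusted p = 0.0123 and 0.00885).

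Some flavonoid genes and glycosyltransferases were also among those lower in the BLJ line than in the JKD line. UGT78D2 attaches glucose to flavonols and anthocyanidins. Its intensities were 1.60, 1.42 and 1.62 for the BLJ line, 3.46, 3.07 and 3.58 for the JKD line and 3.14, 2.64 and 2.15 in the controls. All BLJ arrays were below all controls, while the JKD arrays overlapped the controls. The log2 fold change was −0.85 ± 0.11 (adjusted p = 0.00238). CHIL, a chalcone isomerase-like protein that promotes flavonoid production, averaged 2.98 ± 0.290 (SD, n = 3) in the BLJ line and 4.55 ± 0.284 in the JKD line. Its log2 fold change was −0.51 (adjusted p = 0.04), and the controls averaged 3.39 ± 0.586. The call of CHIL was lost without any 1 of the BLJ or JKD arrays other than BLJ 2. It was also lost without the 3 arrays rich in heat shock transcripts (−0.41, adjusted p = 0.188) and with the covariate (−0.26, adjusted p = 0.284). CHIL was not on the flavonoid list, where 1 of 2 tested members, UGT78D2, was called, beside 1.71% of all probe sets tested. The other, AT1G06000, had −0.53 and did not pass (adjusted p = 0.0962). Only 2 of the 8 listed flavonoid genes were measured.

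Of 42 UDP-glycosyltransferases tested, 4 were lower in the BLJ line and 0 higher, beside 0.697% lower and 1.02% higher over all probe sets tested. The list median was 0.01. Besides UGT78D2 these were UGT73B4 (1.67 ± 0.242 against 3.04 ± 0.323, log2 fold change −0.66), UGT74D1 (1.70 ± 0.262 against 2.76 ± 0.0858, −0.53) and UGT73B1 (−0.30). UGT73B4 and UGT73B1 belong to a subgroup known for stress-induced members, and UGT74D1 glucosylates auxins. UGT74D1 was below every control in the BLJ line and above every control in the JKD line. The list count was 6 without normalization between arrays and 7 with median-centred arrays. It was 1 without BLJ 3, JKD 1 or JKD 3, 2 without JKD 2, and 1 with the heat shock covariate, with UGT78D2 called each time. The tau-class glutathione transferase GSTU27 averaged 3.96 ± 0.234 for the BLJ line and 5.98 ± 0.549 for the JKD line, beside controls of 6.04 ± 0.556. Its log2 fold change was −0.52. GSTU27 was the only one of 11 glutathione transferases tested that passed, beside 1.71% of all probe sets tested. Its call was lost without BLJ 3, JKD 1 or JKD 2. The list median was −0.06. Among the members that did not pass, GSTU22 had −0.66 (adjusted p = 0.233), while GSTU28 (0.43) and GSTU26 (0.33) lay the other way.

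The remaining leading genes that were lower in the BLJ line are given singly. AT5G03610, a GDSL-type lipase gene, had 1.45, 1.24 and 1.20 in the BLJ line against 3.04, 2.45 and 2.26 in the JKD line (−0.71 ± 0.11, adjusted p = 0.00515). Its controls, at 1.57, 1.68 and 2.38, lay above the BLJ arrays and overlapped the JKD arrays. AT2G48130, a lipid transfer protein gene, averaged 1.83 ± 0.414 against 3.05 ± 0.182 (−0.58). AT2G21100, of the dirigent family that steers lignan and lignin coupling, averaged 1.15 ± 0.341 against 2.05 ± 0.232 (−0.58), and its controls, at 1.30 ± 0.284, were nearer the BLJ line. AT3G57010, a strictosidine synthase-like gene, averaged 3.80 ± 0.284 against 6.03 ± 0.480 (−0.58). AT2G14900, of the gibberellin-regulated GASA family of small secreted peptides, averaged 7.79 ± 1.64 against 13.9 ± 0.956, with controls at 13.1 ± 1.45 (−0.80, adjusted p = 0.0143).

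MSRB5 encodes a methionine sulfoxide reductase, an enzyme that repairs oxidised methionine. Its BLJ arrays had 1.77, 2.04 and 1.80, its JKD arrays 4.15, 3.58 and 3.26 and its controls 3.72, 3.62 and 3.17. The JKD arrays overlapped the controls and the BLJ arrays lay below both (−0.76 ± 0.10, adjusted p = 0.00248). With the heat shock covariate the log2 fold change was −0.58 and passed (adjusted p = 0.0244). Without BLJ 1, BLJ 3 and control 3, with BLJ 2 as the only BLJ array, it was −0.66 and did not pass. AT1G62480 likewise averaged 1.55 ± 0.101 for the BLJ line and 2.6 ± 0.111 for the JKD line, beside controls of 2.99 ± 0.564 (−0.55).

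**Figure D3:**
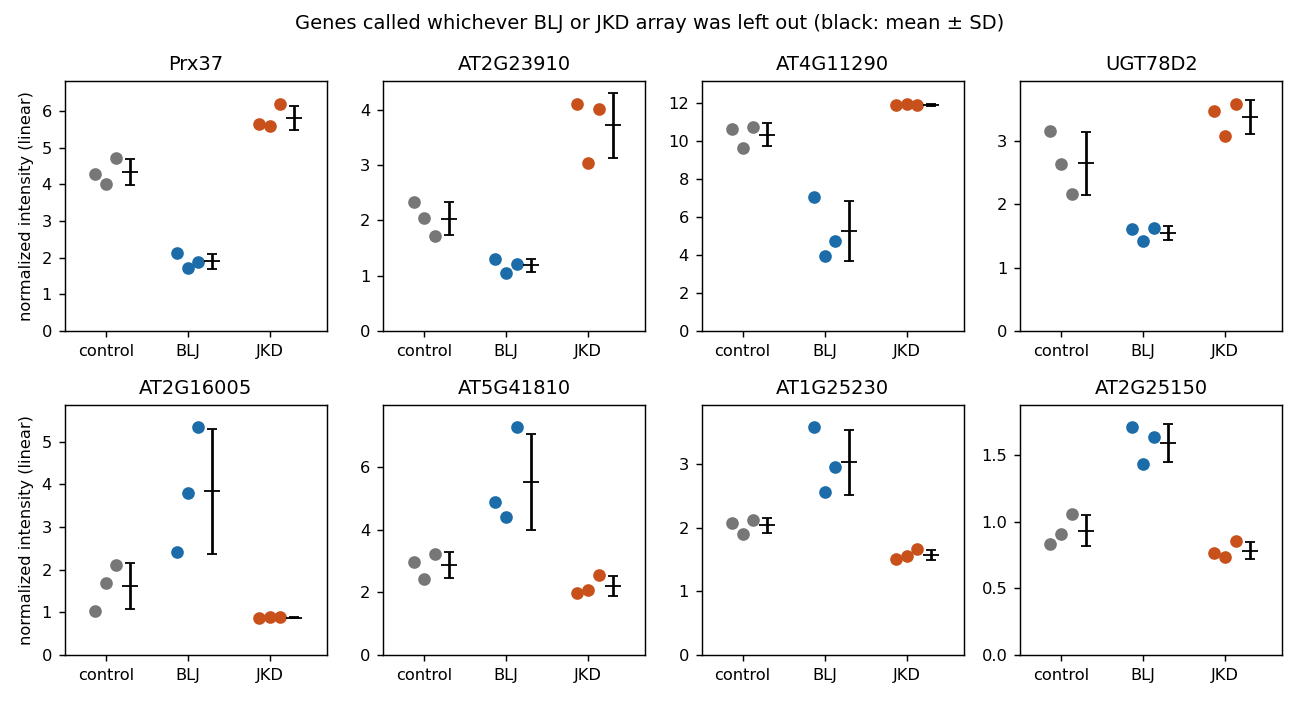
Normalized intensity (linear, y axis from 0) of 8 genes on each control, BLJ and JKD array, with the mean and SD of each group in black. Prx37, AT2G23910, AT4G11290 and UGT78D2 are lower on every BLJ array than on every JKD array; AT2G16005, AT5G41810, AT1G25230 and AT2G25150 are higher.

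Among genes that were higher in the BLJ line, AT2G16005 had the largest log2 fold change. It encodes a protein with an MD-2-related lipid-recognition domain. Its BLJ arrays had intensities of 2.40, 3.79 and 5.33, its JKD arrays 0.855, 0.885 and 0.881, and the controls had 1.03, 1.69 and 2.12. The JKD arrays were close to the array medians and below all controls, and the BLJ arrays were above all controls. The log2 fold change was 1.48 ± 0.21 (adjusted p = 0.00511). With the heat shock mean as a covariate it was 1.13 and did not pass (adjusted p = 0.0952). Without BLJ 1, BLJ 3 and control 3 it was 1.5 and passed.

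A small set of higher genes kept the call whichever BLJ or JKD array was left out. AT5G41810 had 4.90, 4.41 and 7.26 in the BLJ line against 1.97, 2.06 and 2.56 in the JKD line and 2.97, 2.41 and 3.21 in the controls (1.08 ± 0.15, adjusted p = 0.00312). AT1G25230, a purple acid phosphatase gene, had 3.58, 2.57 and 2.96 against 1.51, 1.56 and 1.66, with controls of 2.08, 1.91 and 2.13 between the lines (0.71 ± 0.09, adjusted p = 0.0024). AT2G25150 encodes an acyltransferase that conjugates coumaroyl groups to spermidine. It had 1.71, 1.43 and 1.63 in the BLJ line against 0.764, 0.731 and 0.854 in the JKD line (0.62 ± 0.07, adjusted p = 0.00116). Its controls, at 0.830, 0.911 and 1.06, overlapped the JKD arrays and not the BLJ arrays. These 3 genes also passed with the heat shock covariate, the only 3 of the 15 leading higher genes that did.

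Other leading genes that were higher in the BLJ line included AT4G22610, AT1G14960, AT3G13610 and XTH18. AT4G22610, of the lipid transfer and seed storage protein family, averaged 4.48 ± 1.17 in the BLJ line and 1.94 ± 0.380 in the JKD line (0.96). AT1G14960, of the major latex protein family, averaged 2.39 ± 0.479 against 0.898 ± 0.0209 (0.94), and the JKD arrays were below all controls. AT3G13610 (F6'H1) encodes the hydroxylase of scopoletin synthesis that iron deficiency induces. It averaged 4.02 ± 0.934 against 2.0 ± 0.453, with controls at 1.57 ± 0.389 (0.80, adjusted p = 0.0383). It was the only one of 3 iron deficiency genes that passed, beside 1.71% of all probe sets tested. Its call was lost without any 1 of the BLJ or JKD arrays other than BLJ 2, and also without normalization or with median-centred arrays. XTH18, a xyloglucan endotransglucosylase that remodels hemicellulose, averaged 8.87 ± 0.693 against 5.01 ± 0.459 (0.75). Of 35 expansin, XTH and GH9 wall enzymes tested, 3 were higher in the BLJ line and 0 lower, beside 1.02% higher and 0.697% lower over all probe sets tested. The others were EXPA8 (0.29) and XTH33 (0.14), and the list median was 0.003. The count was 0 without BLJ 3, JKD 1 or JKD 3, 1 without BLJ 1 or JKD 2, and 0 with the heat shock covariate.

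AT5G05600, AT2G32150, AT3G10020, AT3G02480 and AT4G33150 were higher as well. AT5G05600, a jasmonate-hydroxylating oxygenase, averaged 6.09 ± 1.29 for the BLJ line and 3.22 ± 0.713 for the JKD line, beside controls of 5.23 ± 1.42 (0.79). AT2G32150, of the haloacid dehalogenase-like hydrolases, averaged 7.5 ± 1.5 against 3.29 ± 0.847 (1.04), and AT3G10020, which low oxygen induces, 2.59 ± 0.607 against 1.28 ± 0.191 (0.72). AT3G02480, a late embryogenesis abundant protein gene, averaged 4.08 ± 0.583 against 2.30 ± 0.301 (0.67), and AT4G33150, of lysine breakdown, 2.01 ± 0.0906 against 1.20 ± 0.110 (0.51). A hypoxia list and an abscisic acid list were written after these genes had been seen. In each, 2 members were higher, AT2G32150 and AT3G10020 in the first and AT3G02480 and AT4G33150 in the second. Over all probe sets tested 1.02% were higher, but the lists were written with these genes known, so the counts test nothing. The other 3 hypoxia genes tested lay at −0.03 (AT4G24110), 0.15 (AT4G27450) and 0.0003 (AT5G10040), and the other 2 abscisic acid genes at 0.15 (COR47) and 0.26 (LEA4-5). None of these 4 calls held with the heat shock covariate or without BLJ 1, BLJ 3 and control 3. The log2 fold change of AT4G33150 was 0.54 without these arrays and 0.43 with the covariate. Those of AT2G32150, AT3G10020 and AT3G02480 were 0.81, 0.51 and 0.46 without the arrays and 0.38, 0.38 and 0.34 with the covariate. The leading list was completed by AT3G55720 (0.80), AT1G10140 (0.68) and AT3G19390, a granulin-domain cysteine protease gene (0.68).

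The arrays rich in heat shock transcripts can be set beside the calls. Control 3 was the highest of the 3 controls for all 15 leading higher genes and for 7 of the 15 leading lower genes. Over all calls this held for 70.4% of the 162 higher and 38.7% of the 111 lower probe sets, beside 37.5% of all probe sets tested. With the heat shock covariate, which itself separated the lines, 30 of the 162 higher and 51 of the 111 lower calls were kept. Among the leading genes, 3 of 15 higher and 11 of 15 lower ones were kept. Without BLJ 1, BLJ 3 and control 3 the kept leading genes numbered 6 higher and 11 lower. Whichever single BLJ or JKD array was left out, 4 of the 15 leading higher and 6 of the 15 leading lower genes passed: AT2G16005, AT5G41810, AT1G25230 and AT2G25150 among the former, and Prx37, AT2G23910, AT4G11290, UGT78D2, MSRB5 and AT5G03610 among the latter.

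**Figure D4:**
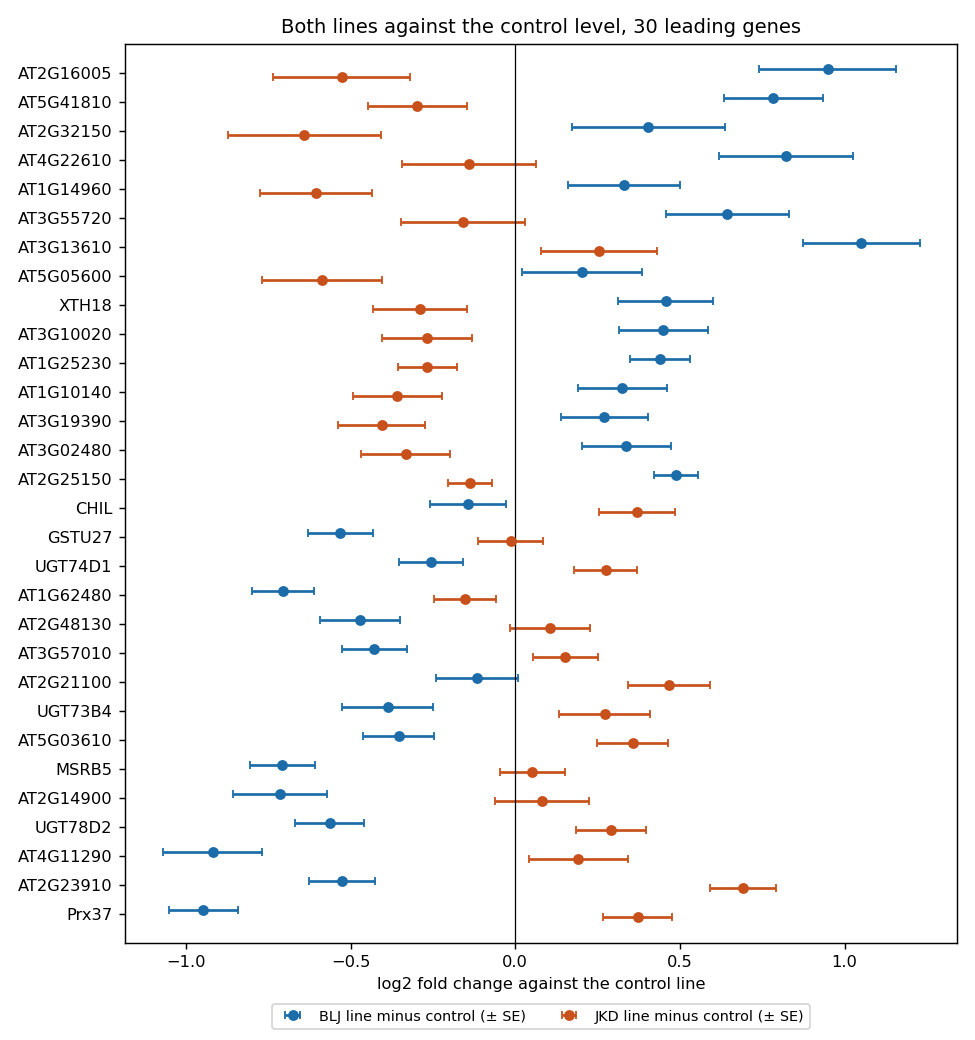
Log2 fold change against the control line (x axis) of the BLJ line (blue) and the JKD line (orange), with SE, for the 15 leading higher and 15 leading lower genes of the direct comparison. For 14 and 13 of them, respectively, zero, the control level, lies between the lines; both lines share the same 3 control arrays.

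The controls place each line relative to J0571 alone, although their deposited values had a narrower spread than those of both lines. For 219 of the 273 called probe sets (80.2%) the control mean lay between these lines, beside 27.7% of all probe sets tested. The called ones were chosen for a large distance between the lines, and all 3 comparisons share arrays, so these shares describe the calls and test nothing. The BLJ line was the farther from the controls for 126 of the 162 higher and 64 of the 111 lower probe sets, and the JKD line for 36 and 47. Genes at the control level in the JKD line and away from it in the BLJ line included MSRB5 (BLJ −0.71, JKD 0.05), GSTU27 (−0.53, −0.01) and AT2G14900 (−0.72, 0.08). The JKD mean was the farther from the controls for AT2G21100 (BLJ −0.12, JKD 0.47), CHIL (−0.14, 0.37), AT5G05600 (0.20, −0.59) and EXPA8 (0.03, −0.26). Of these 4 differences between the JKD line and the controls, that of EXPA8 passed the test (adjusted p = 0.0313), and those of AT2G21100 (0.0623), CHIL (0.101) and AT5G05600 (0.0993) did not. On both sides of the controls and without overlap with them were Prx37, AT4G11290, AT2G23910, UGT74D1, AT2G16005, AT1G25230 and the auxin response regulator gene IAA30. Of these, AT2G23910 alone passed the test against the controls in both lines. The JKD line did not pass for Prx37 (adjusted p = 0.0748), AT4G11290 (0.521), UGT74D1 (0.139), AT2G16005 (0.195), AT1G25230 (0.125) or IAA30 (0.289). For UGT74D1 (0.158) and IAA30 (0.0913) the BLJ line did not pass either. IAA30 averaged 1.56 ± 0.222 for the BLJ line and 1.09 ± 0.0629 for the JKD line, beside controls of 1.26 ± 0.0833 (0.33, adjusted p = 0.0173). It was the only one of 8 auxin response genes tested that passed, beside 1.71% of all probe sets tested. Its call was lost without BLJ 3 or any 1 JKD array, without the 3 arrays rich in heat shock transcripts (0.22, adjusted p = 0.162) and with the covariate (0.21, adjusted p = 0.172).

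Neither factor measured higher in the line labelled for it than in the controls. BLJ (AT1G14580) had 0.828, 0.795 and 0.789 for the BLJ line, 0.954, 0.925 and 0.946 for the JKD line and 0.946, 0.913 and 0.911 in the controls. It was lower in the line labelled for it, without overlap, by a log2 fold change of −0.13 ± 0.03 (adjusted p = 0.0283). This call was lost when any 1 BLJ or JKD array was left out. JKD (AT5G03150) had 0.808, 0.768 and 0.765 for the BLJ line, 0.845, 0.839 and 0.831 for the JKD line and 0.841, 0.90 and 0.837 in the controls (−0.06 ± 0.02, adjusted p = 0.374). Its JKD arrays overlapped the controls. These intensities are near the array medians, the table holds no detection calls, and the sources used here do not say whether the probes lie inside the UAS copies, so they check neither construct nor label. The SCR probe set is unnamed here.

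Of 5 tested members of the SHR, SCR and BIRD network, BLJ itself was the 1 called, beside 1.71% of all probe sets tested. The other values were −0.03 for the GRAS gene AT5G41920 (SCL23), −0.003 for the BIRD gene AT3G45260 and 0.01 for SLY2, an F-box gene of gibberellin signalling. The list median was −0.03.

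Of the ground tissue markers, 1 of 4 cortex genes passed, beside 1.71% of all probe sets tested. The nitrate transporter gene AT3G21670 had 1.05, 1.04 and 1.18 for the BLJ line, 0.837, 0.915 and 0.884 for the JKD line and 0.915, 0.895 and 0.983 in the controls, so that all BLJ arrays were above the rest (0.18 ± 0.03, adjusted p = 0.018). The call was lost without BLJ 3, JKD 1 or JKD 3. AT1G09750 had 0.22 (adjusted p = 0.375), and AT1G62500 and AT1G62510 had −0.01 and −0.002. Both endodermis genes tested were numerically lower in the BLJ line without passing: the receptor kinase gene GSO1, needed for a closed Casparian strip, had −0.41 (adjusted p = 0.435), and AT1G61590, a kinase gene of the same barrier pathway, −0.27 (adjusted p = 0.515). The summed intensity of these 2 endodermis genes ranged from 6.83 to 11.4 for the BLJ line and from 9.85 to 12.6 for the JKD line; that of the 4 cortex genes was 4.75 to 4.98 and 4.12 to 4.32. Markers of other layers gave 0 calls. The values were 0.13 and 0.09 for the root hair expansins EXPA7 and EXPA18, 0.09 and −0.003 for the lateral root genes LBD16 and LBD29, and −0.06 and −0.003 for the stele genes LHW and PHV. OPS of the phloem had −0.02, the root cap gene AT4G04460 −0.20 and BBM of the stem cell niche 0.01. These lists hold 1 or 2 tested members each and say little about cell composition, whose part in the results was not tested.

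Of the lists for processes, several had no called member, beside 1.71% of all probe sets tested. Defensin-like genes had 0 of 6 (PDF2.5 −0.64, adjusted p = 0.0667, and LCR68 −0.51). The list of WRKY and ERF factors had 0 of 6 (ZAP1 0.06, WRKY47 0.04), and no ERF gene was among its tested members. The wound genes had 0 of 2 (STZ −0.24, WRKY53 −0.04). Gibberellin perception had 0 of 3 (GID1A and GID1C, 0.01 each) and sugar starvation 0 of 1 (ATL8, 0.004). Ribosomal protein genes had 0 of 16 (median −0.04, AT1G77750 −0.14, rps18 −0.08). Apart from AT1G77750 these were all genes of the plastid genome. Of 14 genes with CYP symbols, a list that took in cyclophilins beside cytochrome P450 genes, CYP84A4, an enzyme of pyrone synthesis, was higher in the BLJ line (1.65 ± 0.193 against 1.25 ± 0.0732, log2 fold change 0.27). CYP84A4 was the 1 called member (adjusted p = 0.0298), beside 1.71% of all probe sets tested. Its call was lost without any 1 of the BLJ or JKD arrays other than BLJ 2. It was also lost with the heat shock covariate (0.25, adjusted p = 0.146) and with the 6 BLJ and JKD arrays alone (adjusted p = 0.0736). Without BLJ 1, BLJ 3 and control 3 the log2 fold change was 0.14.

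**Figure D5:**
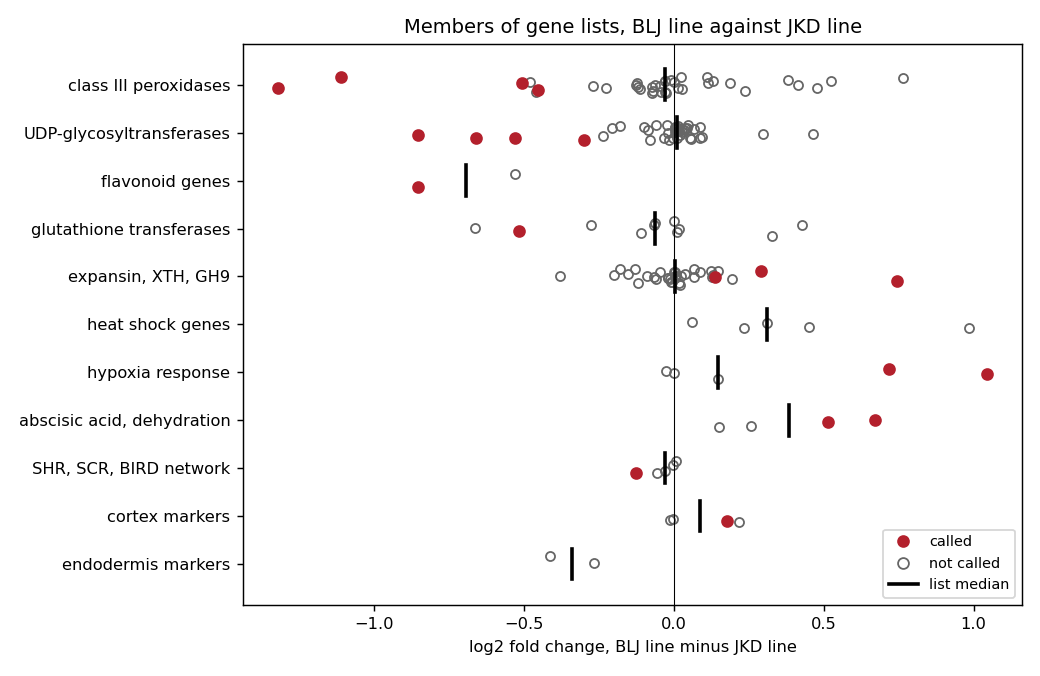
Log2 fold change of the BLJ line minus the JKD line (x axis) for each tested member of 11 gene lists; filled red points passed the test over all probe sets, open points did not, and the black bar is the list's median. Called members of the peroxidase, glycosyltransferase and glutathione transferase lists lie below zero, and those of the wall enzyme, hypoxia and abscisic acid lists above zero.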

How the data were processed

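Per the file and the labels, the deposited table holds 1 linear intensity per probe set and array. The submitters' processing notes name MAS5. Its version, background correction and scaling were not stated, and the table's scale and centring stay unknown. The labels name 1-cycle and 2-cycle labelling without saying which array had which. The 12 columns were mapped by accession, 0 were unused, and 55 control probe sets were left out.

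Values were quantile-normalized between arrays, because the 5% trimmed mean of JKD 1 deviated by 5.25% from the mean of all arrays. The 20th percentile, 0.703, was added before log2, and the dimmest 30% of probe sets were left out. limma 3.58.1 in R 4.3.3 fitted 4 group means on the 12 arrays, with trended, robust empirical Bayes moderation and Benjamini-Hochberg adjustment over 15923 probe sets; all adjusted p-values are from this test, two-sided. Means ± SD are of normalized intensities. The script was tested on simulated data. Arrays have no read depth; their number limits the precision.

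Of 22746 probe sets, 13513 have 1 gene (13436 matched to RefSeq TAIR10.1 by gene number), 503 several and 8730 are unnamed here. The brightest probe set stood for a locus. Named genes are the network genes, the 15 highest and 15 lowest called fold changes above the median intensity with no overlap between the lines, and up to 2 called members per direction of each list, or 2 uncalled ones as values. Further called members of a list, and members named beside a list, were added after their values were seen. Of 28 lists, 24 had a tested member; 3 more were written later. Members, lists and tests were chosen with earlier results of these data known. Same-numbered BLJ and JKD arrays were compared for pairing.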

Additional observations from a re-analysis of the deposited data

Results flagged for a closer look

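For 7 of the named genes the arrays of the BLJ line and of the JKD line all lay on opposite sides of every control array, and the difference between the lines passed limma's test. Against the controls, AT2G23910 alone passed in both lines. On the log2 scale, BLJ minus JKD, the values were 1.48 for AT2G16005, 0.71 for AT1G25230 and 0.33 for IAA30. They were −0.53 for UGT74D1, −1.11 for AT4G11290, −1.22 for AT2G23910 and −1.32 for Prx37. Among the 273 calls, 49 had this arrangement, 27 higher and 22 lower in the BLJ line. Its share over all probe sets tested was not counted. The calls were chosen for a large distance between the lines, so the count tests nothing. The call of UGT74D1 was lost without BLJ 3, JKD 1 or JKD 3 and with the heat shock covariate (adjusted p = 0.0867). That of IAA30 was lost without BLJ 3 or any 1 JKD array, without the 3 arrays rich in heat shock transcripts (adjusted p = 0.162) and with the covariate (adjusted p = 0.172). That of AT2G16005 was lost with the covariate (adjusted p = 0.0952).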

How the results depend on the processing

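The direct comparison gave 273 calls. Values under 1 set to 1 left 97. The count ranged from 78 (without JKD 1) to 471 (without control 3) when 1 of the 12 arrays was left out. It was 104 without the 3 arrays rich in heat shock transcripts and 125 with the heat shock covariate. The other settings gave 216 to 360 calls, with 310 after median centring, 343 on the deposited values and 360 with the 6 BLJ and JKD arrays alone. Of the 36 named calls, 10 passed each time 1 of the 12 arrays was omitted, 27 passed without normalization and 26 with centred arrays; none of the named calls changed direction under the alternatives run. With the replicate number as a block the count was 529 over 12 arrays and 592 over 6, and it kept 273 and 258 of the calls. Deviations of same-numbered BLJ and JKD arrays correlated at 0.02, 0.21 and 0.23, and those of differently numbered ones at −0.38 to 0.26. BLJ 1 correlated best with JKD 3 (0.26) and BLJ 2 with JKD 1 (0.25), so the numbers were not taken to pair the arrays. Whether same-numbered arrays share a replicate effect was not tested. For the position of the control level, the share of calls with it between the lines, 80.2%, was 67.4% after median centring, 74.5% to 85.5% when 1 array was left out, 85.6% without the heat shock arrays and 86.4% with the covariate. The cause of these shifts was not tested. The planned search for a promoter motif and the protein alignment were not run. The number of arrays, 3 per line, limits the precision.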

Other observations

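Further genes were called outside the naming rule and are listed here after their values were seen. Lower in the BLJ line than in the JKD line were SAPX, a plastid and mitochondrial ascorbate peroxidase (3.08 against 4.45, log2 fold change −0.45), and AT5G41670, a 6-phosphogluconate dehydrogenase of the oxidative pentose phosphate pathway (3.08 against 4.34, −0.42). AT1G74470, the geranylgeranyl reductase gene of chlorophyll and tocopherol synthesis, had 1.43 against 2.12 (−0.41), with the controls at 1.46, near the BLJ line. The wall O-acetyltransferase family members TBL30 (−0.43) and TBL19 (−0.31), the peptide hormone gene RALFL32 (−0.46) and AT1G06760, a linker histone H1 gene (−0.50), were lower too.

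Higher in the BLJ line were AT4G23670 (1.61 against 0.795, 0.62), of the major latex protein family like AT1G14960, and AT1G60010 (1.95 against 1.18, 0.50), both with the controls nearer the JKD line. AT1G11670, of the MATE efflux transporter family, had 8.01 against 5.30 (0.54). The sugar transporter gene SWEET1 (0.11) and AT5G47390 (KUA1), a MYB-type regulator of cell expansion (0.26), were higher as well.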
